A study of Xenopus laevis with 6 samples.

Results

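Chromosomes 2L and 2S of the African clawed frog Xenopus laevis carried 7108 of the 61049 accessible chromatin regions listed for late gastrula ectoderm, or 11.6%. They carried 5273 of the 44936 regions listed for early gastrula ectoderm, or 11.7%. A region belonged to this set if its distinct interval lay on chromosome 2L or 2S, and no measured value entered the choice. Chromosome 2L held 4005 regions at stage 12 and 2919 at stage 10. Chromosome 2S held 3103 regions at stage 12 and 2354 at stage 10.

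The regions come from ATAC-seq, which marks open chromatin by letting the Tn5 transposase place adapters where DNA is exposed. The tissue was animal cap ectoderm, cut from embryos at stage 9 and kept in culture until stage 12, late gastrula, or stage 10, early gastrula. Each stage had 3 libraries of 2 explants, read as paired ends of 100 nucleotides, and the 3 libraries of a stage share 1 list of regions. No genotype, treatment or sex is given for the embryos in the sources used here. Explants of both stages were cultured after dissection, those of stage 12 for longer, so time in culture cannot be told apart from stage. The ectodermal identity of the tissue was not checked, since the lists carry no gene names.

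Xenopus laevis is an allotetraploid frog that arose from a cross between related species, and it kept the chromosomes of both parents as a longer L set and a shorter S set. Homeologous chromosomes such as 2L and 2S descend from one ancestral chromosome, and the S set is known for having lost more genes. Sex in this species is set by a ZZ/ZW system, and 2L is the sex chromosome: the W form carries the ovary-determining gene dm-w near the far end of its long arm. Chromosome 2S has no sex locus. Accessible regions in early embryos mark mostly promoters and enhancers, and the ectoderm of these stages is moving from pluripotency towards epidermal and neural fates.

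All values rest on the 2 combined lists, so no spread between embryos or libraries could be set against any difference. Intervals given here cover counting error only. Where a test is given, its units are the 9 homeologous pairs or the 18 chromosomes, and it asks whether pair 2, or one of its chromosomes, lay apart from the others. Such a test cannot give an exact p below 0.111 with 9 pairs or below 0.0556 with 18 chromosomes, so none could pass 0.05. The read depth of each library is unknown. The background floor, the most common local background recovered from the deposited folds and p-values, was 4.701 reads in the stage 12 list and 2.204 in the stage 10 list, a ratio of 2.13, and the part that this difference plays in the larger stage 12 list was not tested.

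Chromosome 2L was the more densely populated of the pair at both stages. At stage 12 it held 22.1 regions per Mb (95% exact Poisson interval 21.4 to 22.8), against 19.4 on 2S (18.7 to 20.1). The stage 10 density of 2L was 16.1 per Mb (15.5 to 16.7), that of 2S 14.7 (14.1 to 15.3). These densities are taken over 181 Mb of 2L and 160 Mb of 2S, the distance from the chromosome start to the end of its last region. Relative to 2S, density on 2L was 1.14 times as high at stage 12 (exact interval 1.09 to 1.19) and 1.09 times at stage 10 (1.04 to 1.16).

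The excess on 2L was modest within the genome. On the log2 scale the ratio of 2L to 2S was 0.19 at stage 12, against 0.28 ± 0.19 (SD, n = 8) in the other pairs (exact permutation test, p = 0.556, 0.944 after Benjamini-Hochberg adjustment over 14 tests). The stage 10 value was 0.13, against 0.23 ± 0.19 (SD, n = 8) in the other pairs (exact permutation test, p = 0.556, adjusted 0.944). Pair 2 had the third lowest ratio of the 9 pairs at both stages. The adjusted p was 0.944 for all 14 comparisons of this family, so only unadjusted values are given from here on.

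Both chromosomes gained regions between the stages, and at rates close to the rest of the genome. Chromosome 2L had 1.37 times as many regions at stage 12 as at stage 10 (exact interval 1.31 to 1.44), and 2S had 1.32 times as many (1.25 to 1.39). The other 16 chromosomes together had 1.37 times as many (1.35 to 1.39). On the log2 scale the change was 0.46 on 2L, against 0.45 ± 0.05 (SD, n = 17) on the other chromosomes (exact permutation test, p = 0.944). The change was 0.40 on 2S, against 0.45 ± 0.05 (SD, n = 17) on the other chromosomes (exact permutation test, p = 0.278), and only 2 of the 18 chromosomes had a smaller one.

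Regions were unevenly spread along both chromosomes. In 5 Mb bins, 2L ran from 6.2 regions per Mb (31 regions, 35 to 40 Mb) to 49.4 (247 regions, 135 to 140 Mb) at stage 12. At stage 10 the same bins were the extremes of 2L, at 4 and 35.8 regions per Mb. The densest full bin of 2L thus held 7.97 times as many regions as the sparsest at stage 12 (exact interval 5.47 to 12.0), and 8.95 times at stage 10 (5.62 to 15.0). On 2S the sparsest bin lay at 10 to 15 Mb, with 5.6 regions per Mb at both stages. The densest bin of 2S lay at 125 to 130 Mb, with 38 regions per Mb at stage 12 and 29.8 at stage 10. The median over full bins was 20.6 regions per Mb for 2L and 18 for 2S at stage 12, and 14 for 2L and 14.2 for 2S at stage 10.

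**Figure D1:**
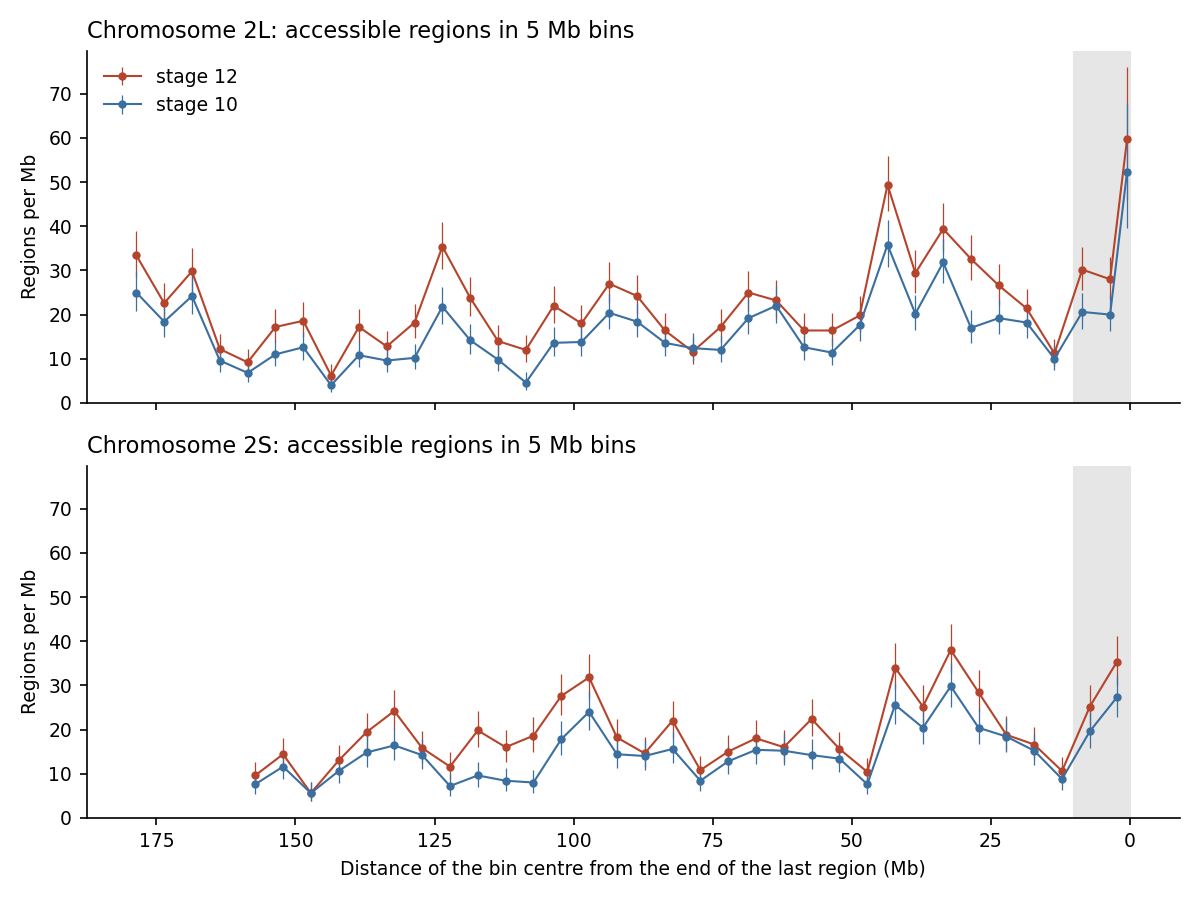
Regions per Mb in 5 Mb bins of chromosomes 2L (top) and 2S (bottom), against the distance of the bin centre from the end of the last region, with stage 12 in red, stage 10 in blue, exact 95% Poisson intervals as bars and the final 10 Mb shaded. The densest full bin of 2L reached 49.4 regions per Mb at stage 12, and both chromosomes show 2 high stretches between 30 and 45 Mb from the far end.

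The profile along each chromosome was largely held between the stages. Over 30 steps of equal relative length, the stage 12 and stage 10 densities had a Spearman rho of 0.94 on 2L and 0.87 on 2S. Both lists draw on the same sequence and its mappability, so these values describe the profile and carry no test. Along the same relative steps, 2L and 2S were less alike, with a rho of 0.30 at stage 12 and 0.20 at stage 10. The other 8 pairs had a median rho of 0.61 at stage 12 and 0.62 at stage 10, and 6 of the 8 were above pair 2 at each stage.

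Profiles were also aligned at their far ends. Counted back from the far end in 5 Mb steps, a way of aligning them chosen after the values were seen, the last 50 Mb had a Pearson r of 0.76 at stage 12 and 0.57 at stage 10 over 10 steps. Over the last 155 Mb, or 31 steps, r was 0.50 at stage 12 and 0.55 at stage 10. Spearman rho was 0.77 at stage 12 and 0.64 at stage 10 over the last 50 Mb. Over the last 155 Mb rho was 0.33 at stage 12 and 0.39 at stage 10. At stage 10 the far part was thus close to the longer stretch by r but not by rho. Over the 30 relative steps r was 0.52 at stage 12 and 0.41 at stage 10. For the last 50 Mb the median r of the other 8 pairs was 0.48 at stage 12 and 0.25 at stage 10. At stage 12 the step at 30 to 35 Mb from the end had a density of 45 regions per Mb for 2L and 36.8 for 2S. The step at 40 to 45 Mb had 40.6 for 2L and 35 for 2S. Between the far end and these 2 high stretches lay a low one on each chromosome, at 15 to 20 Mb on 2L with 16 regions per Mb and at 10 to 15 Mb on 2S with 10.8.

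The final 10 Mb of 2L, counted back from its last region, held about as many regions as the final 10 Mb of 2S. The position of the sex locus was not checked in this build, so whether that window holds it is not known here. At stage 12 there were 317 regions on 2L and 294 on 2S, or 31.7 and 29.4 per Mb. At stage 10 there were 228 regions on 2L and 227 on 2S, or 22.8 and 22.7 per Mb. The ratio of 2L to 2S was 1.08 at stage 12 (exact interval 0.917 to 1.27) and 1.004 at stage 10 (0.832 to 1.21), so a difference was not detectable at these counts. By counting error alone, the upper bounds leave room for an excess on 2L of up to 1.27 times at stage 12 and 1.21 times at stage 10. Counts along both chromosomes varied more than counting error gives, and spread between libraries is not covered. Larger differences are therefore not excluded.

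The log2 ratio of the final 10 Mb was 0.11 for pair 2 at stage 12, against 0.36 ± 0.48 (SD, n = 8) in the other pairs (exact permutation test, p = 0.556). The stage 10 value was 0.0063 for pair 2, against 0.26 ± 0.49 (SD, n = 8) in the other pairs (exact permutation test, p = 0.444). Pair 3 raised both the mean and the spread of the others, at 1.46 at stage 12 and 1.43 at stage 10. Without it, a comparison added after the values were seen, the others were at 0.20 ± 0.19 at stage 12 (SD, n = 7, exact permutation test, p = 1) and at 0.091 ± 0.13 at stage 10 (SD, n = 7, exact permutation test, p = 0.625), where the smallest p possible is 0.125. At stage 12, 3 of these 7 pairs lay closer to 0 than pair 2, and at stage 10 this held for 0 of the 7. The sign for pair 2 depended on what was counted. With summits in place of regions the log2 ratio was -0.0581 at stage 12 and -0.163 at stage 10. With bases covered it was -0.11 at stage 10.

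**Figure D2:**
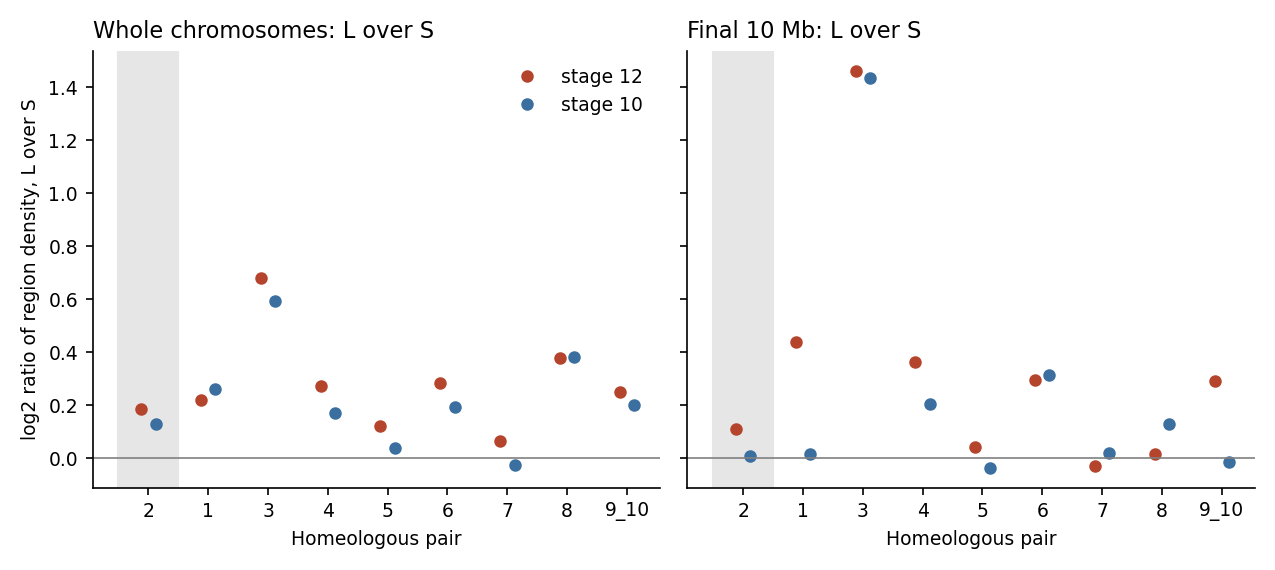
Log2 ratio of region density on the L chromosome over the S chromosome for pair 2 (shaded) and the other 8 homeologous pairs, over whole chromosomes (left) and over the final 10 Mb (right), with stage 12 in red and stage 10 in blue. Pair 2 lies at 0.19 and 0.13 over whole chromosomes, and at 0.11 and 0.0063 over the final 10 Mb, at stage 12 and stage 10.

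Both far ends were denser than the chromosome they belong to. The final 10 Mb of 2L had 1.47 times the density of the rest of 2L at stage 12 (exact interval 1.31 to 1.65) and 1.45 times at stage 10 (1.26 to 1.66). The final 10 Mb of 2S had 1.57 times the density of the rest of 2S at stage 12 (1.38 to 1.77) and 1.60 times at stage 10 (1.39 to 1.83). Dense far ends were common. The median of the other 16 chromosomes was 1.30 at stage 12 and 1.38 at stage 10, and 2L ranked 7th and 9th among the 18 chromosomes. Among all 240 windows of 10 Mb counted back from the far ends, the window on 2L ranked 23rd at stage 12 and 24th at stage 10.

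The 10 Mb at the other end of the chromosomes differed more. The first 10 Mb of 2L held 280 regions at stage 12 and 217 at stage 10, and the first 10 Mb of 2S held 120 and 96. The density there was 2.33 times as high on 2L as on 2S at stage 12 (exact interval 1.88 to 2.91) and 2.26 times at stage 10 (1.77 to 2.91). The intervals of these ratios lie wholly above those of the final 10 Mb. On 2S the first 10 Mb had 0.602 times the density of the rest of the chromosome at stage 12 and 0.637 times at stage 10, the lowest of the 18 chromosomes at both stages. The other 16 chromosomes ranged from 0.874 to 2.16 at stage 12 and from 0.852 to 2.70 at stage 10. The start of the chromosomes was compared after the values were seen, so no test is given.

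**Figure D3:**
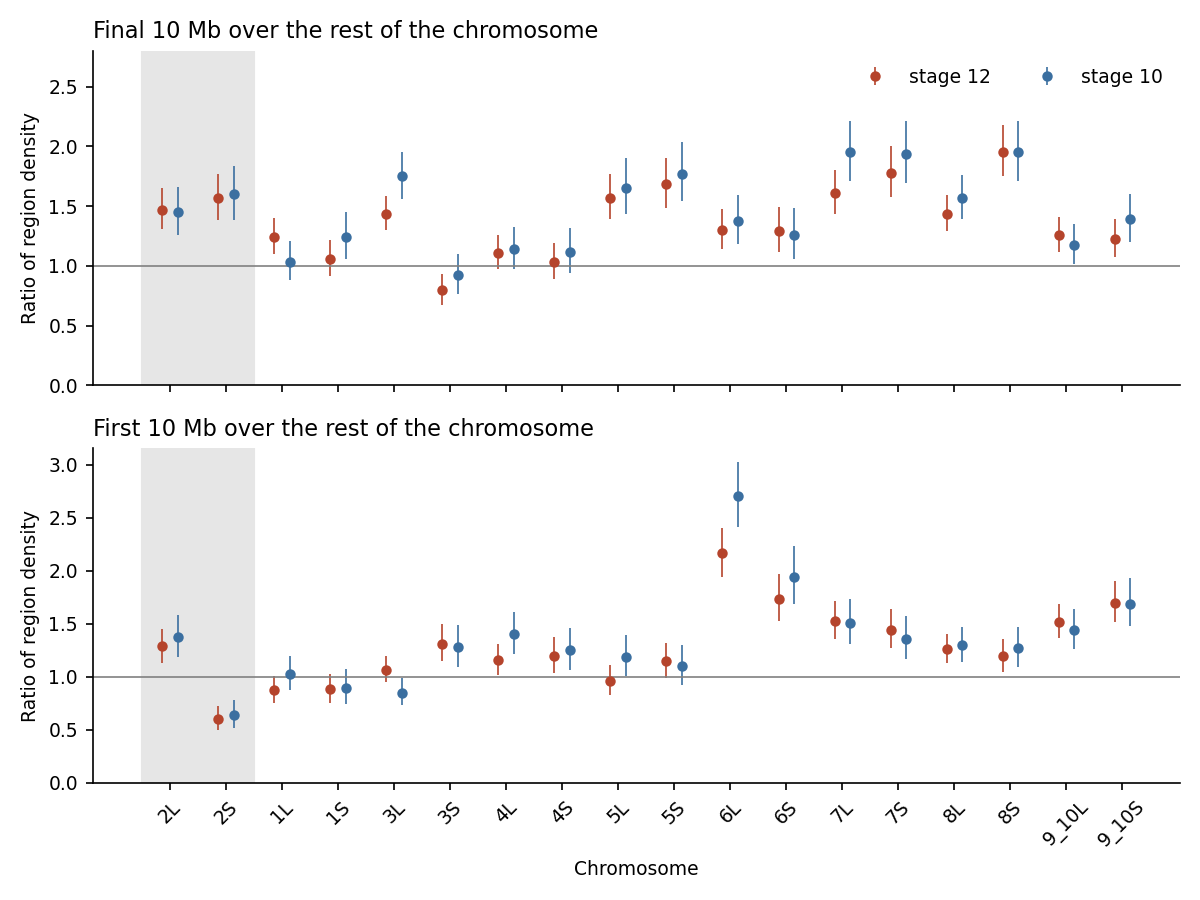
Region density in the final 10 Mb (top) and the first 10 Mb (bottom), divided by the density of the rest of the same chromosome, for 2L and 2S (shaded) and the other 16 chromosomes, with stage 12 in red, stage 10 in blue and exact 95% intervals as bars. In the bottom panel 2S lies at 0.602 at stage 12 and 0.637 at stage 10, below the other chromosomes.

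The final 10 Mb were themselves uneven. On 2L the outermost 1 Mb was the fullest step, with 62 regions at stage 12 and 51 at stage 10. The step at 4 to 5 Mb from the end of 2L held 11 regions at stage 12 and 10 at stage 10, and the step at 5 to 6 Mb held 14 and 6. On 2S the outermost 1 Mb held 43 regions at stage 12 and 32 at stage 10. The fullest step of 2S lay further in, at 5 to 6 Mb with 48 regions at stage 12 and at 3 to 4 Mb with 38 at stage 10. The step that was fullest on 2S at stage 12 was thus among the 2 emptiest on 2L.

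The outer 5 Mb of 2L held 191 regions at stage 12 and 151 at stage 10, and the inner 5 Mb held 126 and 77. Their ratio was 1.52 at stage 12 (exact interval 1.20 to 1.91) and 1.96 at stage 10 (1.48 to 2.62). On 2S the outer 5 Mb held 168 regions at stage 12 and 130 at stage 10, or 1.33 times (1.05 to 1.69) and 1.34 times (1.02 to 1.76) the inner 5 Mb. The outer 5 Mb thus held more regions than the inner 5 Mb on both chromosomes. On 2S the 1 Mb steps did not rise steadily towards the tip. There the steps at 6 to 7 and 7 to 8 Mb held 12 regions each at stage 12, and 13 and 11 at stage 10.

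**Figure D4:**
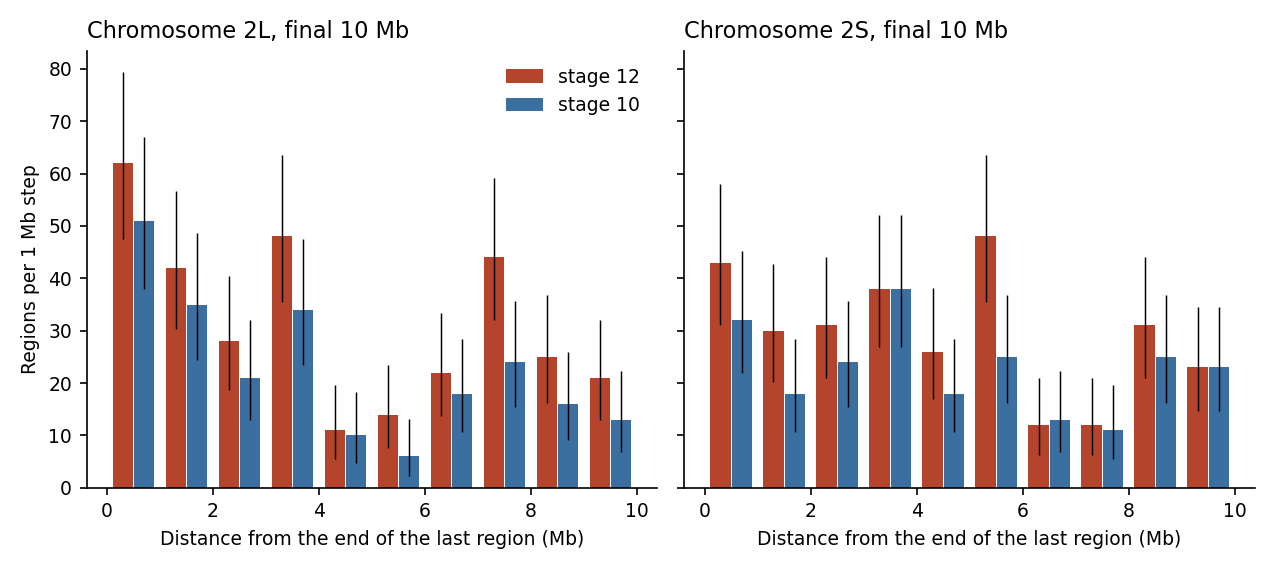
Number of regions in 1 Mb steps of the final 10 Mb of 2L (left) and 2S (right), with stage 12 in red, stage 10 in blue and exact 95% Poisson intervals as bars. The outermost step of 2L holds 62 regions at stage 12 and 51 at stage 10, and the steps from 4 to 6 Mb of 2L are the emptiest at each stage.

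Between the stages, the final 10 Mb gained regions at a rate near that of the rest of each chromosome. On 2L the number at stage 12 was 1.39 times that at stage 10 in the final 10 Mb (exact interval 1.17 to 1.66) and 1.37 times in the rest (1.30 to 1.44). On 2S it was 1.30 times in the final 10 Mb (1.09 to 1.55) and 1.32 times in the rest (1.25 to 1.40). On the log2 scale the final 10 Mb of 2L changed by 0.48, against 0.37 ± 0.13 (SD, n = 17) at the other far ends (exact permutation test, p = 0.5). The final 10 Mb of 2S changed by 0.37, against 0.38 ± 0.13 (SD, n = 17) at the other far ends (exact permutation test, p = 0.944).

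Elsewhere on the chromosomes some 5 Mb bins gained far more regions than others. On 2L, 36 of 37 bins held more regions at stage 12 than at stage 10, and on 2S 31 of 32. The largest gain on 2L was at 70 to 75 Mb, with 60 regions at stage 12 and 23 at stage 10, a ratio of 2.61 (exact interval 1.59 to 4.42). The largest on 2S was at 50 to 55 Mb, with 93 regions at stage 12 and 40 at stage 10, a ratio of 2.33 (1.59 to 3.46). The neighbouring bins of 2S at 40 to 45 and 45 to 50 Mb followed, with 99 and 80 regions at stage 12, against 48 and 42 at stage 10. The bin of 2L at 150 to 155 Mb had 163 regions at stage 12 and 85 at stage 10, a ratio of 1.92 (1.47 to 2.52).

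The bins with the smallest change gained none. The bin of 2L at 100 to 105 Mb had 58 regions at stage 12 and 62 at stage 10, a ratio of 0.935 (exact interval 0.643 to 1.36). The bin of 2S at 10 to 15 Mb had 28 regions at both stages. With 69 bins examined, single intervals that miss the ratio of the whole chromosome carry little weight. The interval lay above that ratio in 2 bins of 2L and 2 of 2S, and below it in 1 bin of 2L and 0 of 2S.

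Many regions were listed at 1 stage only, meaning that they overlapped no region of the other list by even 1 bp. At stage 12 this held for 1847 of the 4005 regions on 2L, or 46.1% (95% Wilson interval 44.6% to 47.7%), and for 1355 of the 3103 on 2S, or 43.7% (41.9% to 45.4%). Over all 18 chromosomes the share was 45.6%. In the stage 10 list it held for 668 of the 2919 regions on 2L, or 22.9% (21.4% to 24.4%), and for 523 of the 2354 on 2S, or 22.2% (20.6% to 23.9%). Over all 18 chromosomes that share was 22.3%. Both chromosomes were therefore near the background of the lists.

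The share differed little between 2L and 2S. At stage 12 it was 2.45 percentage points higher on 2L than on 2S, against 2.09 ± 1.27 points (SD, n = 8) in the other pairs (exact permutation test, p = 0.778). The L chromosome had the higher share in all 9 pairs. The difference for pair 2 was 1.17 points when both lists were first cut to regions with the top score. It was 0.292 points when both were cut to their upper 50% by −log10 p. A region then counted as single-stage if it overlapped no kept region of the other list. These values therefore follow another definition than the 2.45 points and do not show a smaller difference among stronger regions. The stage 10 share was 0.667 points higher on 2L, against -0.154 ± 1.42 points (SD, n = 8) in the other pairs (exact permutation test, p = 0.778). With both lists cut to the upper 50% in the same way, the stage 10 difference had the other sign, at -0.659 points.

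Single-stage regions were somewhat more frequent in the final 10 Mb than in the rest of each chromosome. On 2L they made up 51.1% of the stage 12 regions there (Wilson interval 45.6% to 56.6%), against 45.7% in the rest (44.1% to 47.3%). At stage 10 they made up 30.3% there (24.7% to 36.5%), against 22.3% in the rest (20.7% to 23.9%). On 2S the shares were 46.3% there (40.6% to 52.0%) and 43.4% in the rest (41.6% to 45.2%) at stage 12. At stage 10 they were 27.3% there (21.9% to 33.4%) and 21.7% in the rest (19.97% to 23.5%). The intervals of the far end and the rest were apart only on 2L at stage 10. At each stage 3 of the other chromosomes had a larger difference than 2L. For 2S the difference ranked 6th from the highest of the 18 at stage 12 and 9th at stage 10. On the other 16 chromosomes the median of the final 10 Mb minus the rest was -1.85 points at stage 12 and 4.76 points at stage 10. A higher share at the far end was thus common at stage 10, but not at stage 12.

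Regions on 2S were slightly wider than on 2L, as were those of the S chromosome in all pairs at stage 12 and in 6 of 9 at stage 10. At stage 12 the median width was 565 bp on 2L (interquartile range 339 to 837 bp) and 594 bp on 2S (353.5 to 870.5 bp). At stage 10 it was 502 bp on 2L (297 to 765.5 bp) and 511.5 bp on 2S (292 to 794.75 bp). The log2 ratio of the medians was -0.072 at stage 12, against -0.064 ± 0.048 (SD, n = 8) in the other pairs (exact permutation test, p = 0.889). The stage 10 value was -0.027, against -0.056 ± 0.076 (SD, n = 8) in the other pairs (exact permutation test, p = 0.667). Regions covered 1.37% of 2L and 1.26% of 2S at stage 12, and 0.911% of 2L and 0.856% of 2S at stage 10.

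A region can hold several summits, the local maxima of read pileup within it. At stage 12 a region held 2.90 ± 1.69 summits on 2L (SD over 4005 regions) and 3.03 ± 1.79 on 2S (SD over 3103 regions). In the stage 10 list it held 2.87 ± 1.74 on 2L (SD over 2919 regions) and 2.94 ± 1.79 on 2S (SD over 2354 regions). The mean on 2L minus that on 2S was -0.131 at stage 12, against -0.101 ± 0.0571 (SD, n = 8) in the other pairs (exact permutation test, p = 0.556). At stage 10 the difference was -0.0679, against -0.0858 ± 0.0756 (SD, n = 8) in the other pairs (exact permutation test, p = 0.778). Regions with a single summit made up 21.4% on 2L and 20.2% on 2S at stage 12, and 23.4% on 2L and 23.7% on 2S at stage 10.

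At the far end of 2L the regions were narrower, and held fewer summits on average, than at the far end of 2S. In the final 10 Mb the median width was 546 bp on 2L and 620.5 bp on 2S at stage 12, and 446.5 bp on 2L and 510 bp on 2S at stage 10. The mean number of summits there was 2.68 on 2L and 3.01 on 2S at stage 12, and 2.57 on 2L and 2.89 on 2S at stage 10. Regions with a single summit made up 25.2% of the final 10 Mb on each chromosome at stage 12. At stage 10 they made up 29.4% of all regions in the final 10 Mb of 2L, and a larger share on 2S. Among shared regions of stage 10 alone they made up 21.4% on 2L and 26.1% on 2S. Among single-stage regions of stage 10 they made up 47.8% on 2L and 53.2% on 2S. The lower mean of 2L at stage 10 thus did not go with a larger share of single-summit regions. For mean summits 2L had the second lowest far end of the 18 chromosomes at both stages, above 4L. So although the final 10 Mb of both chromosomes held similar numbers of regions, they held 851 summits on 2L and 886 on 2S at stage 12, and 587 on 2L and 657 on 2S at stage 10. Bases covered came to 190 kb on 2L and 188 kb on 2S at stage 12, and to 113 kb on 2L and 122 kb on 2S at stage 10.

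Widths at the far end of 2L were also split by presence at both stages, with no test. Shared regions there had a median width of 629 bp at stage 12, against 712 bp in the rest of 2L, and 514 bp at stage 10, against 577 bp in the rest. Single-stage regions there had a median of 478 bp at stage 12, against 427 bp in the rest, and 306 bp at stage 10, against 309 bp in the rest. On 2S the shared regions of the final 10 Mb had medians of 759.5 bp at stage 12 and 626 bp at stage 10, against 758 and 599.5 bp in the rest of 2S.

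Over both chromosomes, width went with presence at both stages, as it did elsewhere. On the other 16 chromosomes the median width was 432 bp for single-stage and 718 bp for shared regions at stage 12. For the pair these medians were 438 and 725 bp. At stage 10 they were 314 and 569 bp on the other 16 chromosomes, and 307 and 583.5 bp for the pair. Shares by width class are given for 2L and 2S only. On 2L the single-stage share at stage 12 was 68.6% in the narrowest of 4 width classes (Wilson interval 65.7% to 71.4%) and 19.8% in the widest class (17.4% to 22.4%). On 2S it was 64.5% in the narrowest (61.0% to 67.8%), and 151 of 839 regions in the widest (15.6% to 20.7%). At stage 10 the share on 2L was 44.0% in the narrowest class and 5.97% in the widest, and on 2S 42.3% and 4.19%. The class limits were set by the widths of all regions of a list on the 18 chromosomes, at 342, 569 and 841 bp for stage 12 and 293, 498 and 774 bp for stage 10. A wider region has more bases on which an overlap can fall, and the part this plays was not tested.

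**Figure D5:**
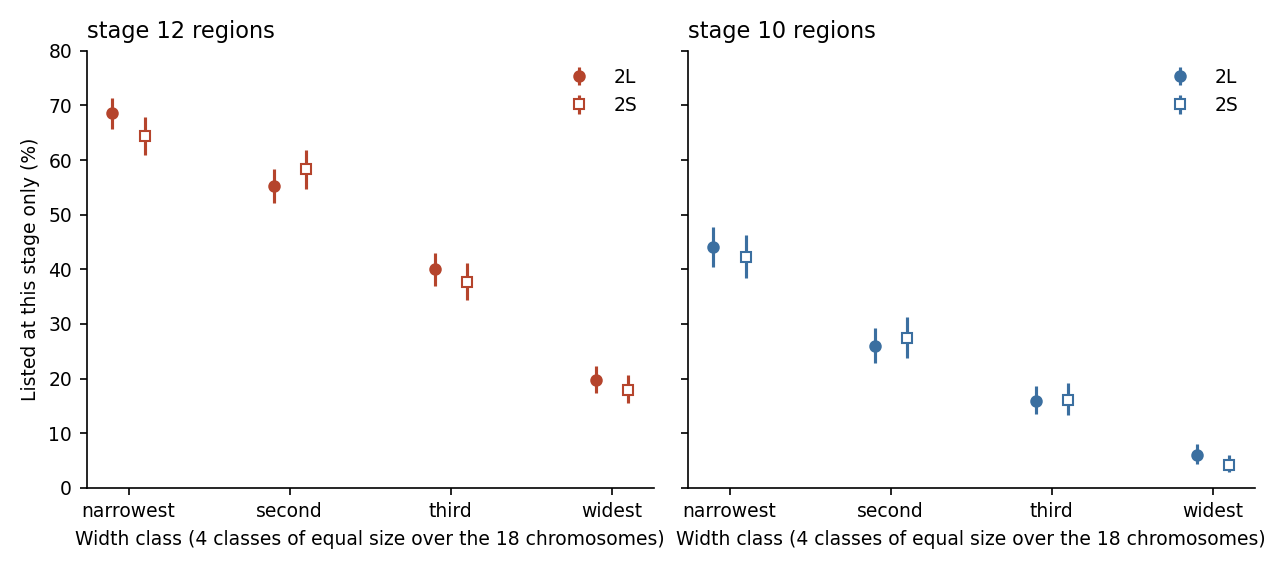
Share of regions listed at 1 stage only on 2L (filled circles) and 2S (open squares), by class of region width, for stage 12 regions (left) and stage 10 regions (right), with 95% Wilson intervals as bars. The share falls from 68.6% in the narrowest class to 19.8% in the widest on 2L at stage 12, and from 44.0% to 5.97% at stage 10.

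Single-stage regions also scored lower. The score, the fold enrichment and the −log10 p of a region are the authors' own values. Whether they can be compared between the 2 lists is not known, so shares and medians are read here within a list. At stage 12 the top score of 1000 was reached by 54.6% of single-stage and 90.3% of shared regions on 2L, and by 54.4% and 89.5% on 2S. At stage 10 it was reached by 19.6% of single-stage and 65.3% of shared regions on 2L, and by 19.3% and 64.8% on 2S. Median fold enrichment at stage 12 was 8.35 for single-stage and 13.1 for shared regions on 2L, and 8.54 and 12.9 on 2S. At stage 10 it was 7.22 for single-stage and 9.45 for shared regions on 2L, and 7.06 and 9.20 on 2S. On the other 16 chromosomes the top score was reached by 55.5% of single-stage and 90.2% of shared regions at stage 12. At stage 10 it was reached there by 20.7% and 63.1%. Median fold there was 8.43 and 12.7 at stage 12, and 7.29 and 9.13 at stage 10, in the same order. Single-stage regions therefore sat lower in their list on 2L and 2S, as they did on the other chromosomes.

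Top scores were rarer in the final 10 Mb of the pair at stage 12. There 67.5% of regions on 2L (Wilson interval 62.2% to 72.4%) and 62.9% on 2S (57.3% to 68.2%) had the top score, against 74.4% in the rest of 2L (73.0% to 75.8%) and 75.4% in the rest of 2S (73.7% to 76.9%). The 2S far end had the lowest such share of the 18 chromosomes. A lower share at the far end was not limited to the pair. The final 10 Mb minus the rest was -6.90 points on 2L and -12.4 points on 2S. On the other 16 chromosomes the median was -2.56 points (range -9.96 to 3.61), and 2L ranked 14th from the highest of the 18. At stage 10 the shares were 51.8% on 2L and 52.9% on 2S, against 55.1% in the rest of 2L and 54.9% in the rest of 2S, with intervals that overlapped.

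Single regions are named by position only, in the xenLae2 build named in the submitters' processing notes, with 1-based starts. No annotation of that build was used, so the genes and features at these positions are not given. In the final 10 Mb of 2L the regions with the highest −log10 p were present at both stages. The first at stage 12 was 173912285 to 173912417, 133 bp wide with 1 summit, a fold enrichment of 28.0 and a −log10 p of 1270. The same interval was second at stage 10, with a fold of 35.7 and a −log10 p of 490. The second at stage 12 was 180733516 to 180734254, 0.355 Mb from the far end, with a fold of 32.2. Its counterpart at stage 10, 180733516 to 180734250, was first in that list with a fold of 41.0.

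The third regions of the 2L far end differed between the lists. At stage 12 it was 174086328 to 174086517, 190 bp wide with 1 summit and a fold of 77.3, the highest fold on 2L in that list. At stage 10 it was 174168618 to 174169665, 1048 bp wide with 5 summits and a fold of 16.1. All of these leading regions overlapped the other list.

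In the final 10 Mb of 2S one stretch led both lists. At stage 12 it was a single region, 152381422 to 152383360, 1939 bp wide with 13 summits, a fold of 10.1 and a −log10 p of 1719, the highest of 2S. At stage 10 that stretch was listed as 2 regions. The first, 152381419 to 152382972, had 9 summits, a fold of 11.1 and a −log10 p of 5979, the highest of the pair. The second, 152383140 to 152383361, had a fold of 5.35. The third leading region at stage 10, 152381026 to 152381196, lay just outside the stretch and overlapped another stage 12 region, with a fold of 3.75. A high −log10 p at a moderate fold goes with a high local background in the deposited values.

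The other 2 leading regions of the 2S far end at stage 12 lay closer to the tip. The region 159426248 to 159426557, 0.298 Mb from the far end, had a fold of 74.0, the highest on 2S in that list. The region 157247377 to 157249133 was 1757 bp wide with 10 summits and a fold of 19.4. Both overlapped a stage 10 region. The highest fold in the final 10 Mb at stage 12 was thus 77.3 on 2L and 74.0 on 2S. On the other chromosomes it ran from 26.4 on 4L to 104 on 6L, so regions of high fold there were not particular to the pair. Whether any leading regions of 2L and 2S are homeologous was not examined.

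The single-stage regions with the highest −log10 p, 2 on each chromosome and list, lay outside the final 10 Mb. That window held only 162 of the 1847 single-stage regions of 2L at stage 12, and 136 of the 1355 of 2S. On 2L the leading ones at stage 12 were 162626377 to 162627039, with 4 summits and a fold of 19.7, and 29714987 to 29715863, with 2 summits and a fold of 25.9. They were 7.89 and 30.3 kb from the nearest stage 10 region. On 2S those at stage 12 were 130354781 to 130355436, with a fold of 19.2, and 143240837 to 143241549, with a fold of 23.8. They were 5.55 and 8.13 kb from the nearest stage 10 region. All 4 had the top score.

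At stage 10 the leading single-stage regions lay close to the other list, with 1 exception. On 2L the region 95530193 to 95530449, with a fold of 26.9, was 249 bp from a stage 12 region. The other of 2L, 94989267 to 94989795, with 1 summit and a fold of 37.5, was the exception, 207 kb from the nearest stage 12 region. On 2S the regions 32270494 to 32270674 and 32269805 to 32270380 had folds of 5.18 and 4.76 and lay 579 and 873 bp from a stage 12 region. These regions of 2S lie side by side and are not separate cases. Of all single-stage regions of stage 10, 24.7% on 2L and 28.5% on 2S lay within 1 kb of a stage 12 region. On the other 16 chromosomes the share was 24.8%. So few named regions show no pattern. With 1 list a stage, these single-stage calls could not be checked in replicates.

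The widest regions held many summits. On 2L the widest was at the same place in both lists, 162070119 to 162072666 at stage 12 (2548 bp, 13 summits) and 162070038 to 162072650 at stage 10 (2613 bp, 13 summits). On 2S the widest was 141351621 to 141354346 at stage 12 (2726 bp, 11 summits) and 86357113 to 86359495 at stage 10 (2383 bp, 7 summits). The most summits in a region of the stage 10 list were 14 on 2L, at 122722445 to 122724569, and 13 on 2S, at 102342464 to 102344442. At stage 12 the most were 13 on each chromosome, in the widest region of 2L and in the leading region of the 2S far end.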

How the data were processed

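The 6 libraries, 3 of stage 12 and 3 of stage 10, were assigned to stages by title, and the labels name 1 processed list for each stage. The submitters' processing notes name bcl2fastq 2.20 and the build xenLae2. The aligner, the peak caller, read filters, any shift for the Tn5 cut site and whether replicates were pooled are not given in the sources used here. The deposited lists have 10 columns in narrowPeak order and no header. They hold a deposited score per region (540 to 1000 on the chromosomes), and for each summit a deposited fold enrichment (a ratio) and a deposited −log10 p. The deposited summit offset gave no printed value, and the remaining deposited column was not used.

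Rows with one interval were joined into 1 region, which took the fold and −log10 p of its summit with the highest −log10 p. A region was placed by its midpoint, and the far end of a chromosome was where the last region of the 2 lists ended. Single-stage regions overlapped no region of the other list by 1 bp. Background floors came from solving fold and −log10 p for whole-number pileups, met within a misfit of 0.01 for over 99% of summits with a −log10 p under 250. Counts carry exact 95% Poisson intervals, their ratios exact conditional ones and shares 95% Wilson ones, which cover counting error only. The exact two-sided permutation test compared the distance of 1 pair, or 1 chromosome, from the mean of the others over all assignments. Calculations used Python 3.11.15, numpy 2.4.6, pandas 2.3.3 and scipy 1.17.1, and were tested on simulated lists.

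The regions, windows and comparisons were chosen with earlier results of these data known. Named regions are the 3 of highest −log10 p in the final 10 Mb, the 2 single-stage ones of highest −log10 p, the widest and the one with the most summits, on each chromosome and list. Named bins are the densest and sparsest full 5 Mb bins and those with the largest and smallest change among bins with at least 20 regions in either list. The bins of 2S at 40 to 50 Mb and of 2L at 150 to 155 Mb, and the highest folds, were named after their values were seen. No sequence is printed, because no genome of this build was used.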

Additional observations from a re-analysis of the deposited data

How the results depend on the processing

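No paired analysis was possible because the 3 libraries of a stage share 1 list without replicate numbers, and so no replicate could be left out. Of 88 values with a test that were recomputed, 82 kept their direction and 6 turned it. None could pass 0.05 with so few pairs or chromosomes. Some of the 82 were the reported value unchanged and say nothing about stability. This held where the span ended at the last region of the same list, and where pair 3 was left out. It also held for the density ratios of stage 10 when both lists were cut to an equal number of regions. Of 12 bin ratios, 4 stayed within the counting interval of the reported value and 8 did not. Keeping a direction did not mean keeping a size. The log2 ratio of the final 10 Mb of 2L to that of 2S was the least stable. At stage 12 it was -0.0581 with summits in place of regions. At stage 10 it was -0.163 with summits, -0.114 with bases covered, -0.0242 among regions at the top score and -0.127 in the upper 50% by −log10 p. Where it kept its sign it ran up to 0.21 at stage 12, among regions at the top score, and to 0.22 at stage 10, in the final 5 Mb, and bases covered gave 0.0092 at stage 12. The difference between 2L and 2S in the single-stage share at stage 12 ran from 0.292 to 2.77 points. At stage 10 it was -0.659 points with both lists cut to the upper 50%. Where lists were cut, overlap was taken between the kept regions only. The log2 change in region number between the stages was 0.88 on 2L and 0.84 on 2S among regions at the top score. On 2L 73.9% of regions had that score at stage 12 and 54.9% at stage 10, and on 2S 74.2% and 54.7%. What the score scales in each list is not stated, so these changes cannot be read as larger gains. Leaving pair 3 out of the comparison at the far ends was added after the data were seen. The ratio of the densest to the sparsest bin followed the bin width. In 2 Mb bins it was 15.4 at stage 12 and 51 at stage 10 on 2L, and 29.8 at stage 12 and 105 at stage 10 on 2S. In 10 Mb bins it was 2.79 and 3.22 on 2L, and 3.40 and 3.10 on 2S, in the same order of stages. Apart from the bin width, whose effect follows from its construction, the cause was not tested. The log2 ratio of 2L to 2S over whole chromosomes ran from 0.12 to 0.19 at stage 12 and from 0.089 to 0.145 at stage 10. It kept its sign. The mean in place of the median was not run for summits.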

Other observations

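Regions merged or divided between the stages on 2L and 2S at rates close to those elsewhere. At stage 12, 121 of the 2158 shared regions on 2L and 104 of the 1748 on 2S overlapped at least 2 stage 10 regions, or 5.61% and 5.95%, against 5.74% on the other 16 chromosomes. At stage 10, 40 of the 2251 shared regions on 2L and 23 of the 1831 on 2S overlapped at least 2 stage 12 regions, or 1.78% and 1.26%, against 1.62% on the other 16 chromosomes. These shares are descriptions, with no test.

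The longest stretch without any region and the median gap were longer on 2S at both stages, and 2S also had the lower density of regions. The lower quartile of the gaps at stage 10 went the other way, at 2.14 kb on 2S and 2.22 kb on 2L. Gaps on the other chromosomes are not given here. Gaps over 1 Mb numbered 2 on 2L and 5 on 2S at stage 12, and 6 on 2L and 8 on 2S at stage 10. The longest at stage 12 was 1.39 Mb on 2L, from 4251738 to 5641042, and 1.61 Mb on 2S, from 25423361 to 27031518. The longest at stage 10 was 1.71 Mb on 2L, from 37898007 to 39612320, and 1.89 Mb on 2S, from 112254224 to 114145310. The median gap between neighbouring regions was 12.4 kb on 2L and 15.0 kb on 2S at stage 12, and 18.1 kb on 2L and 18.9 kb on 2S at stage 10. Assembly gaps and unmappable sequence were not marked in the data used here, and their part in these gaps was not tested.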
